A study of Mus musculus with 6 samples.

Results

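The interleukin 1 family comprises cytokines, the receptors they bind and the molecules that block them, and it was read here in mouse hepatic stellate cells from the deposited array values. The 10 genes listed were Il33, Il1a, Il1b, Il18, Il1rn, Il1r1, Il1rap, Il1rl1, Il1r2 and Il18bp, and a probe set was taken where the platform annotation gave it one of these symbols and no other. This gave 16 of the 45101 probe sets on the array, for 9 of the 10 genes and among 18193 genes in all. Il1rl1, which encodes the IL-33 receptor ST2, was not analysed here.

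Interleukin 1 family cytokines signal through paired receptors. A ligand first binds its own receptor chain, IL1R1 for IL-1α and IL-1β or ST2 for IL-33, and the shared chain IL1RAP then joins to start a relay through the adaptor MYD88 and the IRAK kinases to NF-kB. IL-33 is stored in the nucleus and released by damaged cells as an alarmin, and stellate cells are a known source of it in the injured liver, while IL-1α is known as an upstream inducer of the cytokines that senescent cells secrete.

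The study set 2 groups of isolated hepatic stellate cells on a C57Bl/6 background against each other, and all of them carried the transgenes CMV-rtTA and TRE-GFP-shRNA, in which doxycycline induces a short hairpin RNA against p53 with a green fluorescent protein. In the proliferating group (3 arrays), doxycycline was given at 1 ug/ml, and the labels state a knockdown of p53. The senescent group (3 arrays) has the treatment label control, and its labels state that p53 is expressed. Doxycycline, the hairpin and the growth state therefore differ together between the groups and cannot be told apart. The transcript targeted by the hairpin was not analysed here. The labels name no separate animal or culture for each array, so p-values reflect only how far these samples spread, and that spread may be technical.

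Values are log2 expression levels after RMA, a normalization that makes the arrays' distributions alike, so a change is always one against the rest of the array. Array medians lay between 6.15 and 6.19, and arrays of a group correlated at 0.995 to 0.997 across probe sets, against 0.989 to 0.992 between groups. Probe sets for poly-A spike-ins, bacterial transcripts added before labelling, read lower on proliferating arrays by 0.60 ± 0.17 (log2, SE), with an exact two-sided permutation p of 0.1, below which this permutation test of 3 arrays against 3 cannot go. Background was set at 5.57, which 95% of 44 olfactory receptor probe sets did not exceed in their mean level. The number of arrays limits the precision. A level on this scale also depends on the probe, so levels of different genes were not compared one with another. The summed levels of marker lists given below do add levels of different genes, and they depend on the probes too.

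Start regions are shown first for 3 of the 5 members with more RNA in proliferating cells, those with the largest changes. Il33 lies on chromosome 19 and has 2 annotated start windows, each of 250 bases before and 50 after a start (RefSeq, GRCm38.p6). The upstream window is chr19:29924863-29925162 and the other is chr19:29945540-29945839, both on the plus strand. Il1rn is shown by its window at chr2:24336610-24336909, and Il1r1 by its second window at chr1:40266336-40266635, also on the plus strand. Capitals mark matches, on either strand, to 4 motifs: the TATA box TATAAA, the AP-1 site TGANTCA, the NF-kB consensus and the p53 decamer consensus, and each of the 4 windows, chosen after the search, holds 1 match. Of the windows of these genes not printed, the first of Il1r1 and the second of Il1rn hold 0 matches, and the third of Il1rn holds TATAAA.
Il33 upstream start: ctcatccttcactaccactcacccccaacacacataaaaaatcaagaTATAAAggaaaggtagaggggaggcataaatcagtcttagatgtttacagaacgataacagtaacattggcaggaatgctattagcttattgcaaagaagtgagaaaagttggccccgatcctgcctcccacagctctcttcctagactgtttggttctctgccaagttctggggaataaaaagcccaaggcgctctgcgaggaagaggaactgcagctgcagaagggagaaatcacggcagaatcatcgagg
Il33 second start: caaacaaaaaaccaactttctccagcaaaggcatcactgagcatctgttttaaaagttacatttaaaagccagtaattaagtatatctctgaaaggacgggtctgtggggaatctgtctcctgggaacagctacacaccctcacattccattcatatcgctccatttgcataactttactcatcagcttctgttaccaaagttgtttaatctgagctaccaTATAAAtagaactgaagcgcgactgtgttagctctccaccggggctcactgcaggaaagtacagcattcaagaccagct
Il1rn first start: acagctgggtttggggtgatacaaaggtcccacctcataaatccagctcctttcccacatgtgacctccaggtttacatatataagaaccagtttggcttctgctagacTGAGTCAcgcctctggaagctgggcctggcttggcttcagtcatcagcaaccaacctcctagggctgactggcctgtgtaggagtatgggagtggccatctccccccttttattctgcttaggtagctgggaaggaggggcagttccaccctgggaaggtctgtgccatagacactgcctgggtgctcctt
Il1r1 second start: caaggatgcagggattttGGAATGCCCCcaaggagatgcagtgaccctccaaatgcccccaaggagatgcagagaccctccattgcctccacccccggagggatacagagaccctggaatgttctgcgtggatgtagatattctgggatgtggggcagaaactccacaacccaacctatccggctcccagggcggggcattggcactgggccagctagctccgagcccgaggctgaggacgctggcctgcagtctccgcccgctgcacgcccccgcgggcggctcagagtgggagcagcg

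The second Il33 window has TATAAA beginning at position -29 from the start, and the upstream window has it at -203. The Il1rn window has an AP-1 match (TGAGTCA) at -141, and the Il1r1 window an NF-kB consensus match at -232, here read on the minus strand. Among 32851 windows of this length in the table, 13.6% held TATAAA, 7.81% the AP-1 site, 4.51% the NF-kB consensus and 8.36% the p53 decamer. Of the 15 windows of the 10 listed genes, the one of Il1rap held the p53 decamer, at -235, and the other 14 did not hold these letters. The matches describe the sequence only.

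The comparison set proliferating against senescent cells and asks how RNA of this family differs between cells with these labels. Proliferating cells had more RNA of the alarmin Il33, by 9.38-fold (log2 change of 3.23 ± 0.19, SE, with 3 arrays in each group). RNA of the receptor antagonist Il1rn was higher too. The proliferating mean of its brightest probe set lay 3.23-fold above background, and the senescent arrays lay below background. That bound makes no allowance for the spread between arrays, and the second Il1rn probe set gave a log2 change of 0.80. Of the 10 listed genes, both signalling receptor chains that were measured were higher in proliferating cells, Il1r1 by 1.80-fold and Il1rap by 1.62-fold. The cytokine Il18 was higher by 1.502-fold. Il18rap, a receptor chain of the family outside the 10 listed genes, was lower by 2.35-fold. The classical cytokines Il1a and Il1b and the decoy receptor Il1r2 had group means below background in both groups, and Il18bp, which binds IL-18, was measured above background with no call. Of the 9 genes measured, 5 were higher and 0 lower in proliferating cells at an adjusted p of 0.05 (limma, Benjamini-Hochberg over all genes), while 10.5% of all genes were called higher and 9.49% lower (20.0% in all). The groups did not overlap for the same 5 members, all of them higher, while they did not overlap for 37.0% of all genes, 19.6% of all genes being apart and higher. No member was lower at an unadjusted p of 0.05 either. The median change of the 9 was 0.59 (log2), beside 0.0018 over all genes. The listed genes were chosen with results of these data known, so these counts describe them.

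**Figure D1:**
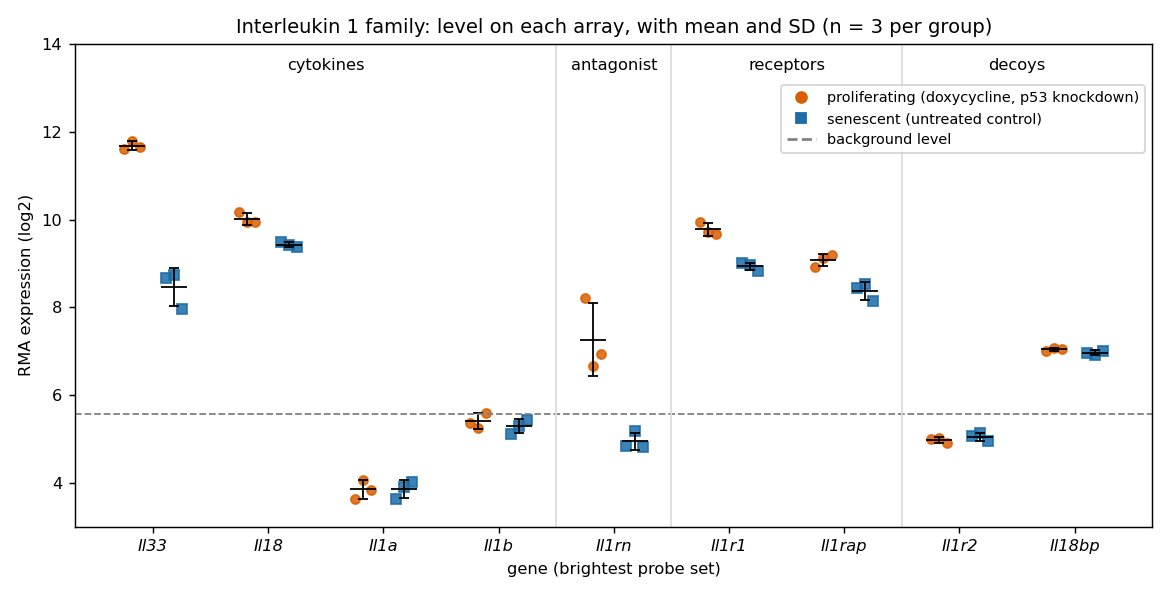
Level of the brightest probe set of each of 9 interleukin 1 family genes on the 6 arrays (y axis, RMA log2), with proliferating arrays as circles left of senescent arrays as squares, black bars for mean and SD (n = 3) and a dashed line at the background level of 5.57. Il33, Il18, Il1rn, Il1r1 and Il1rap lie apart in the groups, and Il1a and Il1r2 lie below background on every array.

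Il33 (Entrez gene 77125, chr19:29925113-29960718 in GRCm38.p6) encodes IL-33. Its single probe set read 11.61, 11.79 and 11.66 on the proliferating arrays, against 8.68, 8.73 and 7.96 on the senescent arrays. All proliferating arrays lay above all senescent ones, and the lowest senescent array was still above background. The group means were 11.69 ± 0.10 in proliferating and 8.45 ± 0.43 in senescent cells (SD, n = 3), so that the spread was wider among senescent arrays. The adjusted p was 4.40e-05 (limma), and the change was the 3rd largest rise among 18193 genes. With any 1 array left out, the log2 change lay between 2.98 and 3.37.

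Il1rn (Entrez gene 16181) encodes the IL-1 receptor antagonist, which occupies IL1R1 without signalling. Its brightest probe set read 8.20, 6.66 and 6.93 on the proliferating arrays, against 4.85, 5.18 and 4.81 on the senescent arrays. All 3 senescent arrays lay below background and all 3 proliferating arrays above it, so the fold is given as a bound, the proliferating mean of 7.26 ± 0.83 (SD, n = 3) against the background level. The fit gave a log2 change of 2.32 ± 0.35 (SE, adjusted p = 0.00261, limma), which is no bound. Proliferating replicate 1 was 1.27 above the next array, and without it the change was 1.85. Of the gene's other probe sets, the second gave a log2 change of 0.80 ± 0.18 (SE, adjusted p = 0.0265, limma over all probe sets). The third, below background on all 3 senescent arrays, was at least 1.97-fold higher in proliferating cells (adjusted p = 0.00819). In those 2 probe sets, too, proliferating replicate 1 was the highest array, at 6.82 and 7.16, and the groups did not overlap.

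Il18 (Entrez gene 16173) encodes IL-18, a cytokine that induces interferon gamma in lymphocytes. It read 10.16, 9.93 and 9.94 on the proliferating arrays, against 9.49, 9.41 and 9.37 on the senescent arrays. The groups were apart by less than for Il33, and the log2 change was 0.59 ± 0.08 (SE, limma, adjusted p = 0.0022). Its secreted inhibitor Il18bp (Entrez gene 16068) read 7.01, 7.08 and 7.05 in proliferating cells, against 6.96, 6.90 and 7.02 in senescent cells. The Il18bp groups overlapped, and its log2 change was 0.087 with a 95% interval of -0.069 to 0.24 (adjusted p = 0.449, limma).

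Il1a and Il1b (Entrez genes 16175 and 16176), which encode the agonists of IL1R1, gave no call. Il1a read 3.64, 4.08 and 3.85 on the proliferating arrays, against 3.64, 3.91 and 4.02 on the senescent arrays. Il1b read 5.37, 5.26 and 5.60 on the proliferating arrays, against 5.12, 5.30 and 5.44 on the senescent arrays. Every senescent array of both genes was below background, as were all proliferating arrays of Il1a and 2 of 3 of Il1b. The changes were -0.0044 for Il1a (95% interval -0.31 to 0.30) and 0.12 for Il1b (95% interval -0.14 to 0.39), and RMA compresses changes of probe sets this dim, so that neither a difference nor its absence is shown for these transcripts.

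Il1r1 (Entrez gene 16177) encodes the signalling receptor of IL-1α and IL-1β. Its brighter probe set read 9.95, 9.72 and 9.67 in proliferating cells, against 9.002, 8.96 and 8.84 in senescent cells. The groups did not overlap, and the log2 change was 0.85 ± 0.09 (SE, adjusted p = 6.39e-04, limma). The second probe set read between 2.95 and 3.21 on all arrays, below background, with a change of 0.0039. Averaging both, the change was 0.43.

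Il1rap (Entrez gene 16180) encodes the chain that the receptors of IL-1 and IL-33 share. Its brightest probe set read 8.92, 9.12 and 9.19 in proliferating cells, against 8.45, 8.54 and 8.14 in senescent cells, and its log2 change was 0.70 ± 0.12 (SE, limma, adjusted p = 0.00458). The groups were apart, and senescent replicate 3 was the lowest array, as it was for Il33. Of its 5 probe sets, 3 lay above background, and these gave changes of 0.70, 0.69 and 0.57, of which the last did not pass over all probe sets (adjusted p = 0.0744, limma). The other 2, below background on all arrays, gave -0.16 and -0.038, and averaging all 5 gave a change of 0.35. Which transcript forms the probe sets read was not analysed here. Il1r2 (Entrez gene 16178), a decoy that binds IL-1 without signalling, read 4.998, 5.03 and 4.91 in proliferating cells, against 5.07, 5.13 and 4.95 in senescent cells. All 6 values were below background, and the change was -0.070 (95% interval -0.25 to 0.11).

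Of the 16 probe sets of the family, 8 passed in the fit over all probe sets and all 8 were higher, while 12.4% of all probe sets passed and 6.39% were higher.

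**Figure D2:**
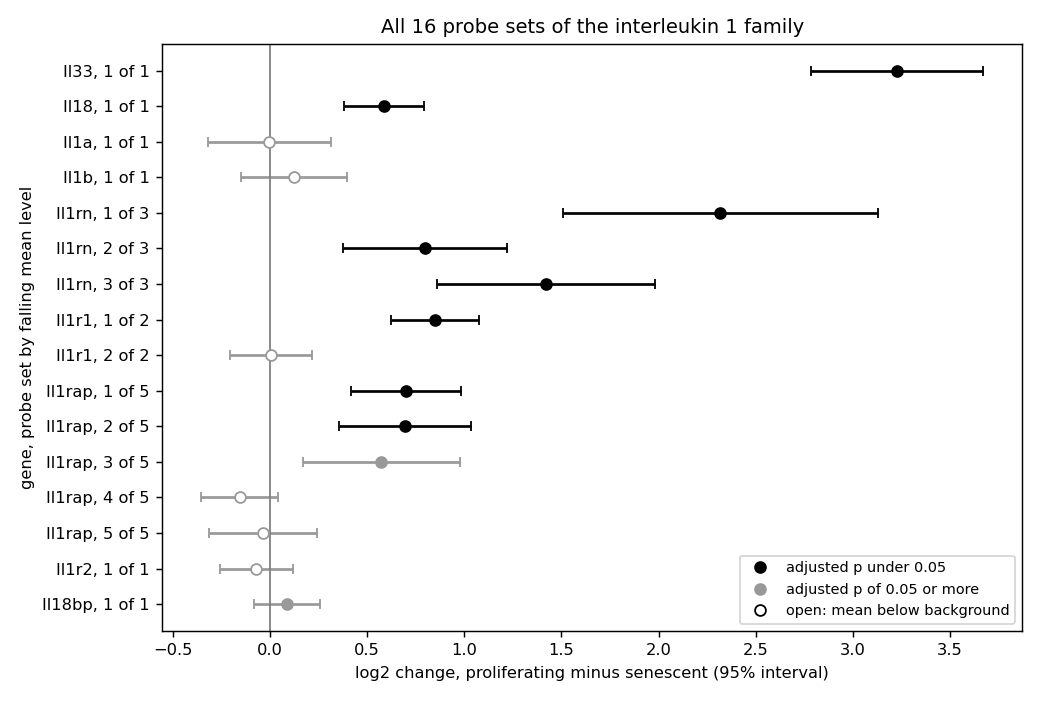
Log2 change, proliferating minus senescent, with its 95% interval (x axis) for all 16 probe sets of the 9 genes (y axis), from limma over all probe sets, in black where the adjusted p is under 0.05 and open where the mean lies below background. The single Il33 probe set and all 3 of Il1rn lie to the right of 0, while the dim probe sets of Il1r1 and Il1rap lie near 0.

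Over the 6 arrays the levels of the other members above background on average correlated with Il33 at 0.97 for Il1r1, 0.96 for Il1rap, 0.96 for Il18, 0.91 for Il1rn and 0.68 for Il18bp. These values describe 6 arrays in 2 groups that share their normalization, and they mostly restate the gap between the groups. Among 12498 other genes above background, 1648 had a correlation with Il33 of at least 0.95 in size. The 6 genes most like Il33 by this measure were Cul4b (0.9999), Postn (0.9998), Snai2 (0.9995), Afap1l2 (0.9994), Tbc1d31 (0.9993) and Adam17 (0.9992). Each was called higher in proliferating cells, which the choice by correlation with Il33 all but fixed. Their log2 changes ran from 0.42 for Cul4b to 1.15 for Snai2, each smaller than that of Il33. The Snai2 and Afap1l2 probe sets are of types that can bind several transcripts. Among genes named below, so are the probe sets that stand for Cxcl1, Il1rl2, Wt1, Gpm6a and Acta2.

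Genes around the family were read from 4 lists. Of 11 other ligands and receptors of the family, 7 were measured, 1 was higher and 1 lower in proliferating cells (14.3% each, beside 10.5% and 9.49% of all genes), with a median change of -0.048 (log2). Il18rap, the accessory chain of the IL-18 receptor, was lower by 2.35-fold in proliferating cells. It read 7.72, 7.45 and 7.59 there, against 8.90, 8.74 and 8.83 in senescent cells (log2 change -1.23 ± 0.09, SE, adjusted p = 9.76e-05, limma), and both of its probe sets passed. The groups did not overlap, and the direction was opposite to that of Il18. Il18r1, the other chain of that receptor, read below background on all arrays. Il1rl2, the receptor of IL-36, was 1.44-fold higher (0.53 ± 0.15, adjusted p = 0.0398). That call ended without any 1 array other than proliferating replicate 2 (changes of 0.36 to 0.60, adjusted p of 0.0543 to 0.122) and in the fit over all probe sets (adjusted p = 0.0616).

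Of 21 genes of the relay from receptor to NF-kB, 19 were measured, and 3 were higher and 2 lower in proliferating cells (15.8% and 10.5%, beside 10.5% and 9.49% of all genes), with a median change of -0.040. Irak3, a kinase family member that restrains this signal, was 1.38-fold higher, at 7.27 ± 0.02 in proliferating and 6.80 ± 0.10 in senescent cells (SD, n = 3), and 1 of its 2 probe sets passed, the other having a change of 0.11. Irak2, a member that carries the signal, was 1.42-fold lower, at 9.01 ± 0.14 in proliferating and 9.52 ± 0.12 in senescent cells. Ikbkg, the regulatory subunit of the IkB kinase, was 1.34-fold lower, and all 6 of its probe sets passed. Scaled to the poly-A spike-ins, Irak2 and Ikbkg turned to changes of 0.092 and 0.17 with no call. Map3k8, a kinase upstream of ERK with 2 of 3 senescent arrays below background, was 1.46-fold higher by fitted values, a call that ended without senescent replicate 1 or 3 (changes of 0.53 and 0.47, adjusted p = 0.0645 and 0.0701). Peli1, a ubiquitin ligase, was 1.19-fold higher (adjusted p = 0.0496), and that call ended without any 1 array other than senescent replicate 2 (changes of 0.20 to 0.26, adjusted p of 0.11 to 0.124). None of its 5 probe sets passed in the fit over all probe sets, where their changes lay between -0.20 and 0.40. The adaptor Myd88 had a change of 0.081 (adjusted p = 0.514).

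Of 16 genes of cytokine processing and release, 12 were measured, 1 was higher and 4 were lower (8.33% and 33.3%, beside 10.5% and 9.49% of all genes), with a median of -0.16. Casp4, the mouse inflammatory caspase-11, was 2.18-fold higher in proliferating cells. It read 8.32, 7.83 and 7.59 there, against 6.87, 6.81 and 6.69 in senescent cells (log2 change 1.12 ± 0.17, SE, adjusted p = 0.00239, limma), with no overlap. The IL-1 converting enzyme gene Casp1, the adaptor Pycard and the sensor Aim2 read below background on all arrays. The calpain system, which cleaves the IL-1α precursor, was lower in its 3 listed genes, Capn1 by 1.54-fold, Capn2 by 1.22-fold and the inhibitor Cast by 1.30-fold, though under spike-in scaling Capn1 had a change of -0.027 (log2), Capn2 and Cast turned to 0.31 and 0.22, and none of them was called. In the fit over all probe sets, 1 of 2 passed for Capn1 and 2 of 3 for Cast, whose changes lay between -0.40 and -0.044. The call of Capn2 ended without any 1 array other than proliferating replicate 2 (changes of -0.31 to -0.24, adjusted p of 0.05005 to 0.0724). Casp8, an apoptotic caspase that can also process IL-1β, was 1.23-fold lower, a call that ended without any 1 array other than proliferating replicate 3 (changes of -0.33 to -0.21, adjusted p of 0.0791 to 0.142) and in the fit over all probe sets, and its change was 0.30 under spike-in scaling.

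Of 27 measured genes known to respond to IL-1, 6 were higher and 7 lower in proliferating cells (22.2% and 25.9%, beside 10.5% and 9.49% of all genes), with a median of -0.038. The neutrophil chemokine genes Cxcl5 and Cxcl1 were 8.27-fold and 4.61-fold higher. Cxcl5 read 9.60, 8.79 and 8.58 in proliferating cells, against 6.02, 6.33 and 5.48 in senescent cells, the last of these below background. The metalloproteinase genes Mmp13 and Mmp3 and the cyclooxygenase gene Ptgs2 were lower, by 3.57-fold, 3.23-fold and 3.11-fold. Irak3 is on this list and on the relay list.

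**Figure D3:**
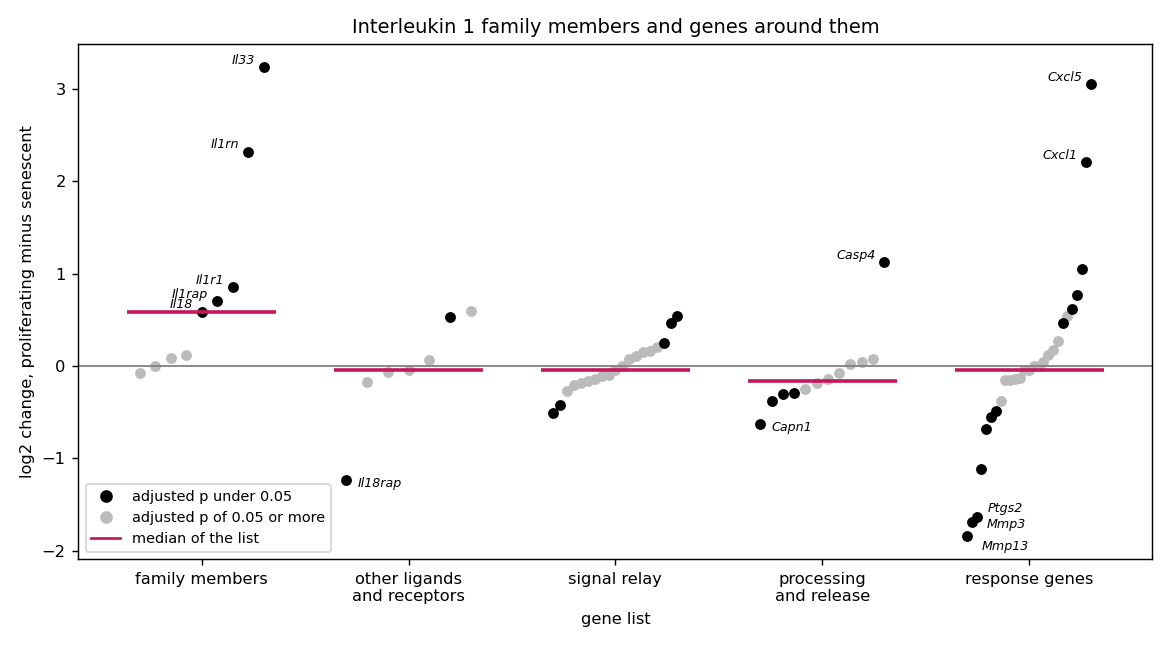
Log2 change, proliferating minus senescent (y axis), of each measured gene of the interleukin 1 family and of 4 lists around it (x axis), in black where the adjusted p is under 0.05, with a line at each list's median. The family's median is 0.59, and those of the 4 lists lie between -0.16 and -0.038.

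Markers of other cell types bear on a family that macrophages, mast cells and mesothelial cells also use, and in a bulk sample fewer cells of a type and less RNA per cell cannot be told apart. Of 14 stellate cell markers, 10 were above background, including Des, Vim, Acta2, Pdgfrb and Hand2, while Lrat, Reln, Gfap and Lum were below it on all arrays. Of the 14, 6 were called higher and 0 lower (42.9% and 0%, beside 10.5% and 9.49% of all genes). Pdgfrb was 2.46-fold and Col3a1 1.90-fold higher in proliferating cells. All 8 mesothelial markers were above background, and 3 were higher and 3 lower (37.5% each). Lrrn4 and Wt1 were 3.47-fold and 2.16-fold higher in proliferating cells, and Gpm6a had a change of 0.57 (log2). Msln, Krt19 and Upk1b were lower, with changes of -0.79, -0.58 and -0.43. Directions in all marker lists hold for the RMA values. Spike-in scaling raised the change of every gene, and marker changes under it were not read here. The summed linear level of the mesothelial list was 22600 to 24650 on proliferating and 24650 to 25070 on senescent arrays. The brightest genes weigh most in such a sum, so it is no measure of the share of a cell type. The part of mesothelial cells in the Il33 difference was not tested.

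Of 14 macrophage markers, 8 were below background on all arrays, among them Adgre1, Ptprc, C1qa and Itgam, and 1 was called, Csf1r, 1.27-fold lower in proliferating cells. The list's summed level was 1230 to 1269 on proliferating and 1216 to 1289 on senescent arrays. Of 8 mast cell and basophil markers, 6 were below background on all arrays, Cpa3, Kit and Fcer1a included. Mcpt8 was lower, at 5.45 ± 0.33 in proliferating and 7.52 ± 0.06 in senescent cells (SD, n = 3). The summed level of the mast cell and basophil list was 932.4 to 963.9 on proliferating and 1159 to 1262 on senescent arrays. Gata2, with group means of 9.55 in proliferating and 9.76 in senescent cells and no call, weighs most in that sum. Lymphocyte markers had 4 of 8 below background on all arrays and 1 call, Gata3, higher by 0.36 (log2). Endothelial markers had 6 of 9 and 1 call, Cdh5, at least 1.12-fold lower in proliferating cells, where it read below background on all 3 arrays. Hepatocyte markers had 3 of 7, Alb included, and 1 call, Apob, with a change of -0.86. Each list of this paragraph thus had 1 call, which was 7.14% to 14.3% of its genes, beside 20.0% of all genes.

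**Figure D4:**
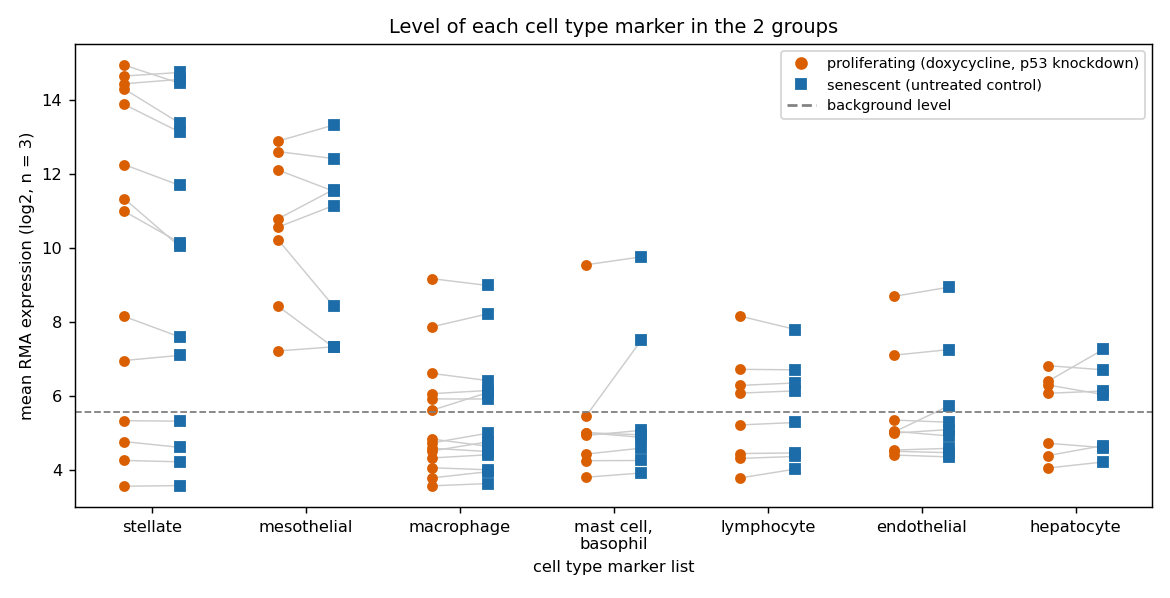
Mean level (y axis, RMA log2, n = 3) of each marker in proliferating (circles) and senescent cells (squares) for 7 cell type lists (x axis), with lines joining a gene's 2 means and a dashed line at the background level of 5.57. All 8 mesothelial markers and 10 of 14 stellate cell markers lie above the line, and 8 of 14 macrophage markers lie below it on all arrays.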

How the data were processed

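RNA of 6 cell pellets was extracted with Trizol, biotin labelled and hybridised to Affymetrix arrays, per the labels' protocols. Log2 levels of each probe set were deposited, which the authors obtained with RMA, per the submitters' processing notes. For software version and chip description the sources used here give nothing. RMA quantile normalizes, and at any rank the sorted arrays lay within 0.123 of each other. Batches are not recorded in the sources used here.

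Of 45101 probe sets, 64 were controls and left out, 34945 had 1 gene symbol, 932 several and 9160 none in the platform annotation. Symbols were updated by Entrez number through RefSeq (GRCm38.p6), which held 34741, and the other 204 were kept. The probe set with the highest mean stood for its gene. Groups were taken from sample titles. Genes were compared with limma 3.58.1 in R 4.3.3 (lmFit, eBayes, proliferating minus senescent, no covariates, Benjamini-Hochberg over 18193 genes, threshold 0.05). The median SE was 0.0884. On simulated data of this comparison with 18193 genes, the fit recovered 76.1% of 67 genes changed by 0.5, 100% of 67 changed by 1 and 100% of 66 changed by 2, with 12 false calls of 196. The simulation drew independent normal noise and changed only these genes, far fewer than were called in the data, so recovery in the data may differ. A bound sets the brighter mean against 5.57 where the other group lies wholly below it. It allows for the background level only and not for the spread of the brighter arrays. Motifs were matched as letters on both strands.

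Members, lists and tests were chosen with earlier results of these data known. Named are all members, up to 5 called genes per pathway list, the 6 genes most correlated with Il33, and up to 2 called markers per cell type. Others were named after their values were seen. Alternatives covered probe sets per gene, a background filter, the variance prior, centring, spike-in scaling, each array left out and a replicate block. Figures used matplotlib 3.10.9 in Python 3.11.15.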

Additional observations from a re-analysis of the deposited data

How the results depend on the processing

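The 5 calls among the members (Il33, Il1rn, Il18, Il1r1 and Il1rap) remained under all 13 alternatives run, and the count of members called was 5 in each except spike-in scaling. Spike-in scaling raised the change of every gene, so it could hardly have ended these calls, and it gave the highest change of each of the 5. The log2 changes lay between 2.98 and 3.83 for Il33, 1.51 and 2.92 for Il1rn, 0.51 and 1.18 for Il18, 0.43 and 1.45 for Il1r1, and 0.35 and 1.30 for Il1rap, the lowest for the last 2 when all probe sets of a gene were averaged. Scaling the arrays to the poly-A spike-ins moved the median of all genes to 0.60. Every named gene then had the same SE of 0.1999, so calls under it mostly reflect 1 shift per array and are not tests of single genes. Under it 15320 genes were called, 15145 higher and 175 lower in proliferating cells, against 3645, 1919 and 1726. All 9 members were called, 9 of them higher, and 51 pathway genes were called, 46 higher and 5 lower, against 24, 10 and 14. Changes under that scaling carry the shift of all genes, which by construction turned Il1a to 0.59, Il1r2 to 0.53, Irak2 to 0.092, Ikbkg to 0.17, Cast to 0.22, Casp8 to 0.30 and Capn2 to 0.31. Of all calls, 52.6% were higher, against 36.8% of 3634 when arrays were centred on the median of middle genes and 98.9% under spike-in scaling.

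With 1 array left out, the genes called numbered 2434 to 3337, of which 1305 to 1774 were higher and 1129 to 1563 lower, and pathway genes 18 to 24, of which 6 to 10 were higher and 12 to 14 lower. The 1129 lower calls came without senescent replicate 1, and the 6 higher pathway calls without senescent replicate 1 or 3. Il1a, uncalled throughout, turned to 0.10, 0.023 and 0.078 without proliferating replicate 1 and senescent replicates 2 and 3 (range -0.11 to 0.10). Over all alternatives, calls of named pathway genes were lost 38 times, the 5 reversals under spike-in scaling included, and the cause was not tested. Deviations of same-numbered arrays from their group means correlated at 0.112, -0.105 and -0.162, and those of differently numbered arrays at -0.216 to 0.292. Deviations from a mean of 3 arrays are tied to each other, so these values cannot show whether arrays shared a culture or a batch. With the replicate block 2935 genes were called, 5 members among them, and Il33 changed by 3.23. Under it 21 pathway genes were called, and the calls of Il1rl2, Peli1, Casp8 and Capn2 ended (adjusted p of 0.0587, 0.0924, 0.0897 and 0.0576).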
